A study of Drosophila melanogaster with 8 samples.

Results

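Juvenile hormone is the insect sesquiterpenoid hormone that keeps larvae larval and, in adult flies, promotes yolk formation and egg maturation. The 10 genes described here make it, break it down or respond to it: jhamt, Jheh1, Jheh2, Jheh3, Jhe, Jhedup, Met, gce, Kr-h1 and takeout (to). They were found by gene name in the deposited table of 13982 fly genes, which held all 10 of them, and all 10 were among the 9986 genes left for testing by the filter on low counts. Of these 10 genes, the juvenile hormone epoxide hydrolase genes Jheh1, Jheh2 and Jheh3 and the carrier-like gene takeout were lower in ND-75KD heads, and no member was higher. Over all tested genes 18.9% were lower. takeout did not pass the test in 1 of 17 alternative settings, the removal of a trend with gene length.

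RNA-seq was performed on heads of Drosophila melanogaster in which the gene for the mitochondrial complex I subunit ND-75 was knocked down by RNAi in neurons. The ND-75KD group had the genotype nSybGal4/ND-75 RNAi and the Control group nSybGal4/w[1118], so both carried the pan-neuronal nSyb driver and differed in the RNAi line. Each group had 4 libraries, each made from 20 heads (10 male and 10 female) of flies aged 2 days. The methods of the study describe neuronal knockdown as made with a temperature-sensitive Gal80 repressor beside the driver, which the sample labels do not name, and its results describe the RNAi line as leaky without a driver. Since Control flies lacked the RNAi line, its genetic background and the knockdown cannot be told apart, and nothing in the labels says that the pools came from separate crosses, so the p-values measure only the spread between pools of heads.

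The libraries held 17448199 to 24071517 assigned reads in ND-75KD heads (median 19669585) and 21758154 to 24680283 in Control heads (median 23541684). ND-75 itself, the targeted gene, was at 282 to 316 CPM in ND-75KD heads and 562 to 684 CPM in Control heads (log2 fold change -1.03 ± 0.11 SE, adjusted p = 1.48e-04 by edgeR's quasi-likelihood test). CPM are read counts divided by library sizes in units of 1e6 reads, the sizes being TMM-scaled to correct for differences in composition. Adjusted p-values are Benjamini-Hochberg values over the whole set of 9986 genes, and those below 0.05 count as calls. Throughout, log2 fold changes give ND-75KD relative to Control. Mitochondrial large ribosomal RNA took 4.58 to 7.40% of reads in ND-75KD libraries and 5.36 to 9.0% in 3 Control libraries, against 23.9% in Control 2.

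As background, juvenile hormone is made in the corpora allata, endocrine glands that in adult flies lie beside the gut at the front of the thorax rather than in the head. Its precursor farnesyl diphosphate comes from the mevalonate pathway, and jhamt encodes the acid methyltransferase that carries out one of the last steps. The hormone is broken down by epoxide hydrolases, which open its epoxide ring to a diol, and by an esterase, which removes its methyl ester. In cells it binds the bHLH-PAS receptors Met and gce, which with the coactivator tai switch on Kr-h1, a zinc finger transcription factor used as the standard readout of the hormone. takeout encodes a secreted protein related to moth juvenile hormone binding proteins and is known in flies for its expression in the head fat body, its clock-dependent level and its part in feeding and male courtship.

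Across the 10 genes, 4 fell and 0 rose in ND-75KD heads, and 6 did not pass edgeR's test. The count of genes that rose was also 0 at an unadjusted p under 0.05, and with DESeq2 or limma voom in place of edgeR. Over all tested genes 18.9% were called lower, 14.3% higher and 33.2% in either direction, and a count of 4 among 10 genes is not read here as a property of the list. The median log2 fold change was -0.20 over the 10 genes and -0.01 over all tested genes. In the 4 genes that fell, every ND-75KD library was below every Control library, an arrangement found in 19% of all tested genes, while in the other 6 the groups overlapped.

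**Figure D1:**
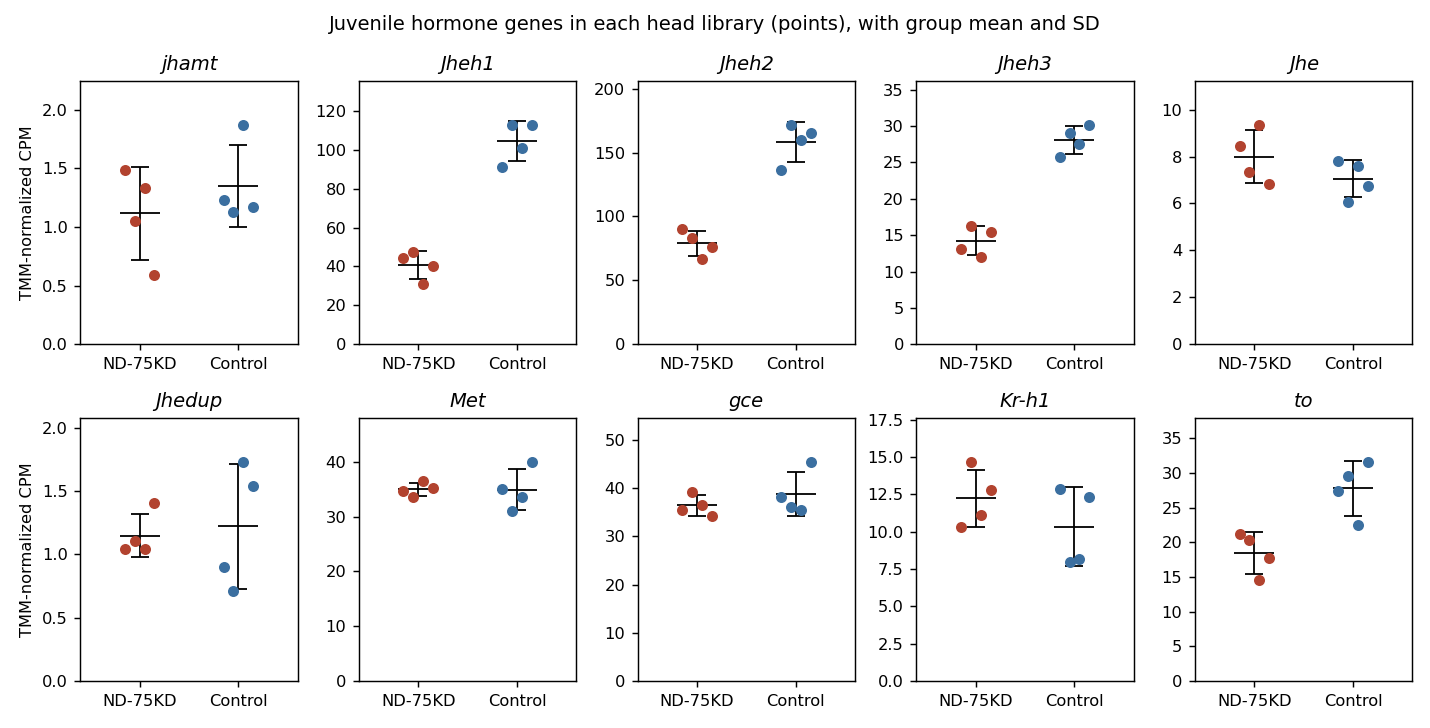
TMM-normalised CPM of the 10 juvenile hormone genes, 1 panel a gene, with ND-75KD heads (red) left of Control heads (blue); points are the 4 libraries of each group and bars are the mean and SD. The groups are separate for Jheh1, Jheh2, Jheh3 and to, and overlap for jhamt, Jhe, Jhedup, Met, gce and Kr-h1.

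jhamt (FBgn0028841; chromosome arm 2L, 16365903 to 16367039, plus strand, in the coordinates of the deposited table) was barely detected in head RNA. It had 30, 21, 32 and 16 reads in ND-75KD libraries 1 to 4 and 30, 16, 40 and 29 reads in Control libraries 1 to 4. These counts correspond to 1.49, 1.05, 1.34 and 0.591 CPM in ND-75KD heads, against 1.23, 1.13, 1.87 and 1.17 CPM in Control heads. The groups overlapped, with the lowest in ND-75KD 4 and the highest in Control 3. The log2 fold change was -0.29 ± 0.32 (SE), with a 95% interval of -0.99 to 0.40 and an adjusted p of 0.496 by edgeR. At this depth the interval leaves a wide range.

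The epoxide hydrolase genes gave the clearest difference. Jheh1 (FBgn0010053; 2R, 18853434 to 18855087), Jheh2 (FBgn0034405; 2R, 18855767 to 18858245) and Jheh3 (FBgn0034406; 2R, 18860375 to 18862078) lie head to tail on the minus strand, with 679 bases between Jheh1 and Jheh2 and 2129 bases between Jheh2 and Jheh3. Each encodes a microsomal-type epoxide hydrolase of the family that converts juvenile hormone to its diol.

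Jheh1 was at 44.2, 47.5, 30.7 and 40.1 CPM in ND-75KD heads, against 91.1, 113, 101 and 113 CPM in Control heads. The highest ND-75KD library was thus well below the lowest Control library, and the means were 40.6 ± 7.28 CPM in ND-75KD heads and 104 ± 10.4 CPM in Control heads (SD, n = 4 each). Jheh1 fell by 1.36 on the log2 scale (SE 0.14, 95% interval -1.67 to -1.06, adjusted p = 1.12e-04 by edgeR), to 38.9% of the Control mean.

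Jheh2 was the most abundant of the 10 genes, at 90.1, 82.9, 66.6 and 76.0 CPM in ND-75KD heads and 136, 172, 160 and 165 CPM in Control heads. Here too ND-75KD 3 was the lowest library, and no values of the groups overlapped. The means were 78.9 ± 10.0 CPM in ND-75KD heads and 158 ± 15.5 CPM in Control heads (SD, n = 4 each), and the log2 fold change was -1.0 ± 0.12 (SE, 95% interval -1.26 to -0.74, adjusted p = 2.28e-04 by edgeR).

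Jheh3 was the least abundant of the cluster, with 13.1, 16.3, 12 and 15.5 CPM in ND-75KD heads and 25.8, 29.0, 27.6 and 30.2 CPM in Control heads. Its groups were separate as well, with means of 14.2 ± 2.00 CPM in ND-75KD heads and 28.1 ± 1.91 CPM in Control heads (SD, n = 4 each). The log2 fold change was -0.99 ± 0.12 (SE, 95% interval -1.25 to -0.72, adjusted p = 2.72e-04 by edgeR). Jheh1, Jheh2 and Jheh3 passed the test, in the same direction, under all 17 alternative settings tried.

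Summed over the cluster, the epoxide hydrolase genes gave 147, 147, 109 and 132 CPM in ND-75KD heads, against 253, 313, 288 and 308 CPM in Control heads. Shares were taken from a separate sum, that of the levels per kilobase of transcript. Of that sum Jheh1 made up 32.9 to 37.5% in ND-75KD heads and 40.4 to 42.0% in Control heads. Jheh2 made up 50.4 to 55.1% of it in ND-75KD heads and 47.4 to 49.2% in Control heads. The ratio of Jheh1 to Jheh2, which does not depend on scaling between libraries, was -0.74 to -0.43 on the log2 scale in ND-75KD heads and -0.28 to -0.18 in Control heads, a difference of -0.37. An exact two-sided permutation test over the libraries gave p = 0.0286 for it, the smallest that 4 against 4 libraries allow, and p = 0.114 once adjusted over the 4 ratios tested (exact test). With the other ratios at their values, the adjusted p could not have gone lower. The test could therefore not pass after adjustment, and whether Jheh1 and Jheh2 fell unequally is not decided by it. The ratio of Jheh3 to Jheh2 differed by 0.01 on the log2 scale (exact permutation p = 0.943, adjusted p = 0.943).

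An antisense gene bears on how these values can be read. In the Ensembl annotation, the noncoding gene asRNA:CR46485 runs on the opposite strand over all 1486 exon bases of Jheh1, 1765 of the 1926 of Jheh2 and 780 of the 1576 of Jheh3. The library kit named in the labels does not mark strand. Reads of the hydrolase genes and of this antisense gene therefore cannot be told apart. The antisense gene is absent from the deposited table and was not analysed here.

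The esterase genes did not pass the test. Jhe (FBgn0010052; 2R, 16119793 to 16122773, plus strand), which encodes the juvenile hormone esterase, was at 8.44, 7.35, 9.35 and 6.83 CPM in ND-75KD heads and 7.82, 6.08, 7.58 and 6.75 CPM in Control heads. The groups overlapped, and the log2 fold change was 0.17 ± 0.14 (SE, 95% interval -0.14 to 0.49, adjusted p = 0.373 by edgeR). Its upstream neighbour and close copy Jhedup (FBgn0034076; 2R, 16117109 to 16119149, plus strand), 643 bases away, was detected by only 21, 22, 25 and 38 reads in ND-75KD heads and 22, 10, 37 and 38 reads in Control heads.

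Jhedup accordingly had 1.04, 1.10, 1.04 and 1.4 CPM in ND-75KD heads, against 0.901, 0.706, 1.73 and 1.54 CPM in Control heads. The Control libraries fell both below and above all ND-75KD libraries, and the log2 fold change of -0.10 ± 0.30 (SE, 95% interval -0.77 to 0.56, adjusted p = 0.809 by edgeR) leaves a wide range. The log2 ratio of Jhedup to Jhe, per kilobase, differed by -0.18 between ND-75KD and Control heads (exact permutation p = 0.6, adjusted p = 0.8).

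The receptor genes were measured precisely and differed little. Met (FBgn0002723; X, 11616124 to 11621280, plus strand) was at 34.6, 33.6, 36.5 and 35.2 CPM in ND-75KD heads and 35.1, 30.9, 33.6 and 40.0 CPM in Control heads. The ND-75KD values all lay inside the Control range, and the log2 fold change was 0.00 ± 0.098 (SE), with a 95% interval of -0.22 to 0.22 (adjusted p = 0.990 by edgeR).

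Its paralog gce (FBgn0261703; X, 15297766 to 15319074, plus strand) was at 35.4, 39.3, 36.6 and 34.3 CPM in ND-75KD heads and 38.2, 36.2, 35.5 and 45.5 CPM in Control heads. The groups overlapped, with Control 4 the highest library for both receptor genes. The log2 fold change of gce was -0.10 ± 0.10 (SE, 95% interval -0.32 to 0.13, adjusted p = 0.499 by edgeR). gce was called lower (-0.29, adjusted p = 0.0239 by edgeR) only when the trend of fold change with gene length was removed, and exons of the antisense genes asRNA:CR44429 and asRNA:CR44961 cover 167 and 2197 of its 5809 exon bases. The log2 ratio of gce to Met, per kilobase, differed by -0.10 between ND-75KD and Control heads (exact permutation p = 0.171, adjusted p = 0.343).

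Kr-h1 (FBgn0266450; 2L, 6082603 to 6096498, plus strand), the transcription factor gene that the receptors induce, did not pass the test either. Its level was 10.3, 14.7, 11.1 and 12.8 CPM in ND-75KD heads, against 12.9, 7.98, 8.19 and 12.3 CPM in Control heads. The Control libraries split into a lower and a higher pair, and the ND-75KD libraries lay above the lower pair and around the higher one. The log2 fold change was 0.23 ± 0.19 (SE), with a 95% interval of -0.18 to 0.65 (adjusted p = 0.355 by edgeR). CG45075, annotated on the same strand and not analysed here, shares 4168 of the 5306 exon bases of Kr-h1, so its count may have lost or gained reads.

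takeout (to, FBgn0039298; 3R, 25240180 to 25241668, plus strand) was at 21.2, 20.3, 14.5 and 17.8 CPM in ND-75KD heads and 27.4, 29.6, 22.5 and 31.6 CPM in Control heads. The highest ND-75KD library was just below the lowest Control library, and library 3 was the lowest of both groups. The means were 18.5 ± 3.01 CPM in ND-75KD heads and 27.8 ± 3.94 CPM in Control heads (SD, n = 4 each). takeout fell by 0.59 on the log2 scale (SE 0.15, 95% interval -0.91 to -0.27, adjusted p = 0.0115 by edgeR). When the trend of fold change with gene length was removed, the value was -0.40 and the call was lost (adjusted p = 0.0691 by edgeR), which was the single one of 17 alternative settings to end it.

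On a scale of CPM per kilobase of transcript, which allows levels of different genes to be compared, the 10 genes had the same order in both groups. In ND-75KD heads the mean level per kilobase was 41.0 for Jheh2, 27.3 for Jheh1, 14.7 for to, 9.01 for Jheh3, 6.88 for Met, 6.26 for gce, 3.80 for Jhe, 2.31 for Kr-h1, 1.04 for jhamt and 0.653 for Jhedup. In Control heads it was 82.1 for Jheh2, 70.2 for Jheh1, 22.2 for to, 17.8 for Jheh3, 6.86 for Met, 6.69 for gce, 3.36 for Jhe, 1.95 for Kr-h1, 1.26 for jhamt and 0.693 for Jhedup. The library values of Met and gce overlapped each other within each group. Besides Met and gce, the neighbours in this order whose library values overlapped were jhamt and Jhedup in ND-75KD heads, and Jheh1 and Jheh2, to and Jheh3, and Kr-h1 and jhamt in Control heads.

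**Figure D2:**
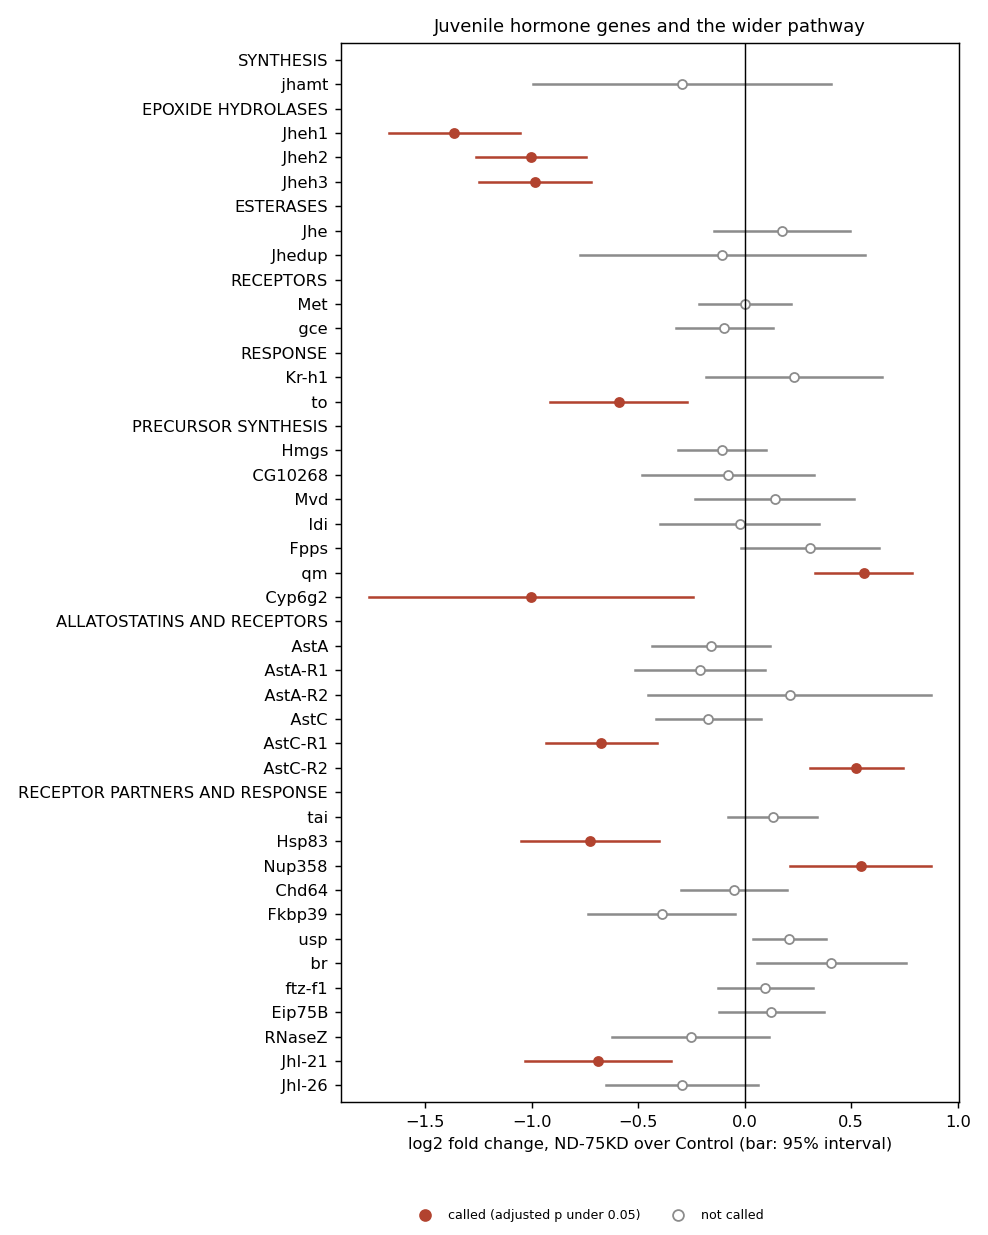
Log2 fold changes (ND-75KD over Control, horizontal axis) of the 10 juvenile hormone genes and of 25 further genes of the pathway, grouped by role, with 95% intervals; filled red points passed the test and open grey points did not. The epoxide hydrolase genes lie from -1.36 to -0.99, and most other genes have intervals that include or lie near 0.

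Further genes of the pathway were examined by role, and their counts stand beside the 14.3% called higher and 18.9% called lower over all tested genes. Of 8 genes listed for precursor synthesis, 7 were in the table and tested, of which 1 was higher, 1 was lower and 5 were not called, with a median log2 fold change of -0.02. The mevalonate pathway genes Hmgs, CG10268, Mvd and Idi and the farnesyl diphosphate synthase gene Fpps did not pass the test, with log2 fold changes from -0.11 (Hmgs) to 0.30 (Fpps). The gene that rose was qm, which encodes a geranylgeranyl diphosphate synthase on a branch off the farnesyl diphosphate route, with 128, 126, 146 and 134 CPM in ND-75KD heads and 101, 79.3, 85.1 and 96.8 CPM in Control heads. All ND-75KD libraries were above all Control libraries for qm (log2 fold change 0.56 ± 0.10 SE, adjusted p = 0.00278 by edgeR).

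Cyp6g2, a cytochrome P450 gene expressed in the fly corpus allatum, had low values of 0.794, 1.6, 1.34 and 0.443 CPM in ND-75KD heads and 2.09, 1.62, 2.15 and 2.35 CPM in Control heads. The groups were separated by little more than the last digit, between ND-75KD 2 and Control 2. Its log2 fold change was -1.0 ± 0.34 (SE, adjusted p = 0.0458 by edgeR), and the call was lost in 9 of 17 alternative settings. Those included leaving out ND-75KD 1, 3 or 4 or Control 1, 3 or 4, each of which alone ended it, with adjusted p from 0.0604 to 0.113 by edgeR.

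Allatostatins are neuropeptides named for inhibiting juvenile hormone synthesis in other insects. The peptide genes AstA and AstC and the receptor genes AstA-R1 and AstA-R2 did not pass the test, while the receptor genes for AstC moved apart. AstC-R1 was at 7.55, 6.90, 7.80 and 8.20 CPM in ND-75KD heads and 12.4, 10.5, 12.4 and 13.1 CPM in Control heads (log2 fold change -0.67 ± 0.12 SE, adjusted p = 0.00195 by edgeR). AstC-R2 was at 14.4, 15.2, 14.6 and 16.1 CPM in ND-75KD heads and 10.6, 9.75, 10.4 and 11 CPM in Control heads (0.52 ± 0.098 SE, adjusted p = 0.00304 by edgeR). For both receptor genes the groups were separate, in opposite directions, and both calls held in all 17 alternative settings. The median over the 6 genes was -0.16.

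Among 12 receptor partners and response genes, 1 rose, 2 fell and 9 were not called, with a median of 0.02. Hsp83, the Hsp90 chaperone that holds Met ready to bind hormone, was at 894, 911, 879 and 901 CPM in ND-75KD heads and 1228, 1480, 1895 and 1325 CPM in Control heads (log2 fold change -0.73 ± 0.15 SE, adjusted p = 0.00417 by edgeR). JhI-21, an amino acid transporter gene first found as induced by juvenile hormone, was at 43.5, 42.4, 48.7 and 43.2 CPM in ND-75KD heads and 72.9, 50.7, 70.6 and 91.9 CPM in Control heads (-0.69 ± 0.15 SE, adjusted p = 0.00742 by edgeR). In both, the ND-75KD libraries lay close together and below a wide spread of Control libraries.

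Nup358, a nuclear pore gene whose product takes part in nuclear import of Met, was the gene of this list that rose, with 106, 110, 105 and 103 CPM in ND-75KD heads and 90, 50.4, 73.8 and 76.4 CPM in Control heads (log2 fold change 0.54 ± 0.15 SE, adjusted p = 0.0183 by edgeR). The other genes named for induction by the hormone, JhI-26 and JhI-1 (listed under its current name RNaseZ), had log2 fold changes of -0.29 and -0.25 and were not called. The coactivator gene tai (0.13), the hormone response element binding genes Chd64 (-0.05) and Fkbp39 (-0.39) and the nuclear receptor and ecdysone response genes usp (0.21), br (0.41), ftz-f1 (0.10) and Eip75B (0.13) were not called either.

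takeout belongs to a large family of genes for small secreted proteins with a hydrophobic ligand pocket, and it fell together with some relatives and not others. Of 27 further family genes listed, 25 were in the table and 19 were tested. Among these 2 rose, 6 fell and 11 were not called, beside 14.3% called higher and 18.9% called lower over all tested genes, with a median log2 fold change of -0.23. With the length trend removed 6 family genes rose and 5 fell. The 6 untested genes had almost no reads in either group.

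CG3246 had the lowest fold change of the tested family genes, with 56.6, 47.0, 35.8 and 33.7 CPM in ND-75KD heads and 134, 208, 166 and 136 CPM in Control heads (log2 fold change -1.90 ± 0.19 SE, adjusted p = 1.16e-04 by edgeR). CG14661 was at 118, 102, 115 and 127 CPM in ND-75KD heads and 318, 259, 261 and 255 CPM in Control heads (-1.24 ± 0.11 SE, adjusted p = 5.48e-05 by edgeR). CG13618 was at 2.58, 5.15, 3.34 and 4.76 CPM in ND-75KD heads and 11.7, 10.9, 10.6 and 10.7 CPM in Control heads (-1.47 ± 0.20 SE, adjusted p = 5.12e-04 by edgeR). In these 3 genes all ND-75KD libraries were below all Control libraries, and each call held in all 17 alternative settings. CG2016, CG31207 and CG5945 also fell, and CG17279 and CG7079 rose.

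**Figure D3:**
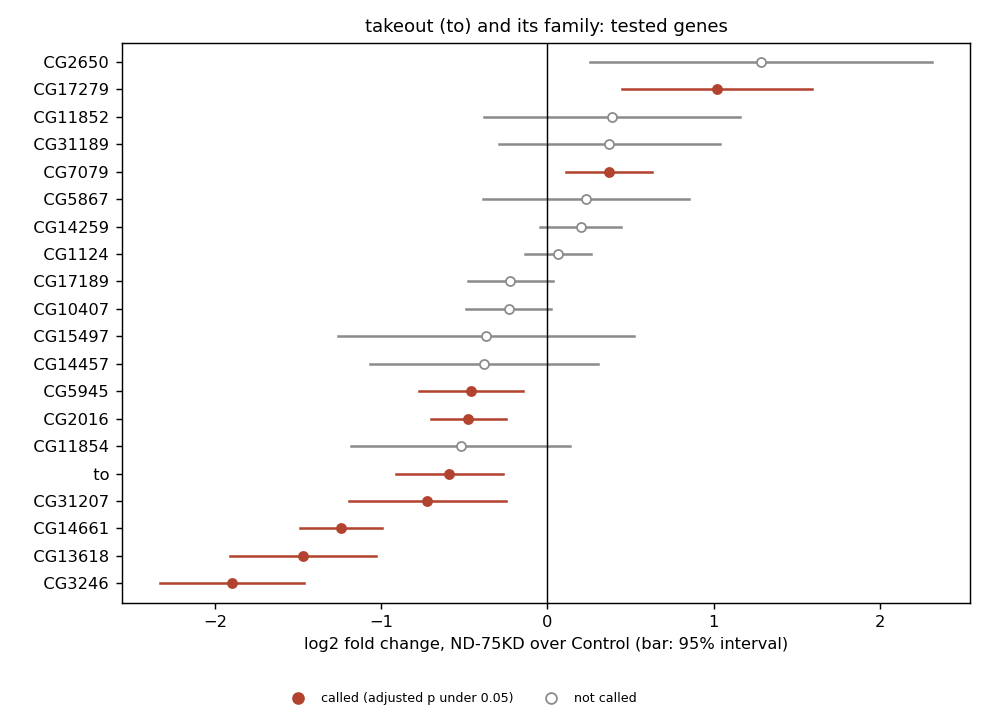
Log2 fold changes (ND-75KD over Control, horizontal axis) of takeout and the 19 tested genes of its family, ordered from highest to lowest, with 95% intervals; filled red points passed the test and open grey points did not. takeout, at -0.59, lies among the lower genes, above CG31207, CG14661, CG13618 and CG3246.

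Immediate neighbours of takeout in the genome are family members as well. CG11852 ends 1284 bases before takeout and CG11854 begins 351 bases after it. CG11852 was at 59.9, 52.5, 53.2 and 46.0 CPM in ND-75KD heads and 37.4, 65.4, 46.1 and 13.5 CPM in Control heads, a wide Control spread around the ND-75KD values (log2 fold change 0.39, adjusted p = 0.412 by edgeR). CG11854 was near 1 CPM in both groups (-0.52, adjusted p = 0.199 by edgeR). Within this cluster only takeout passed the test, and a difference between takeout and its neighbours was not tested.

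Genes around the clusters were examined in the same fit. Their counts stand beside 14.3% called higher and 18.9% called lower over all tested genes. Within 50 kb of the ends of the Jheh cluster, 15 of 20 neighbours were tested, of which 3 were higher and 4 lower, with a median log2 fold change of -0.08. The neighbours called were named after their values were seen. Those that fell were CG43109 (-1.76), CG15098 (-0.74), CG15083 (-0.73) and CG15096 (-0.61), and CG43071, the gene next to Jheh3, was at -1.09 and not called (adjusted p = 0.0524 by edgeR). Those that rose were the antimicrobial peptide genes DptA and DptB, which lie beyond Jheh3, and sano. DptA averaged 123 CPM in ND-75KD heads and 1.43 CPM in Control heads, DptB 81.0 CPM in ND-75KD heads and 4.55 CPM in Control heads, and sano 115 CPM in ND-75KD heads and 52.0 CPM in Control heads, with log2 fold changes of 6.58, 4.26 and 1.15. The tested neighbours of the hydrolase genes thus moved in both directions, and their counts are not read here as a property of the region.

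**Figure D4:**
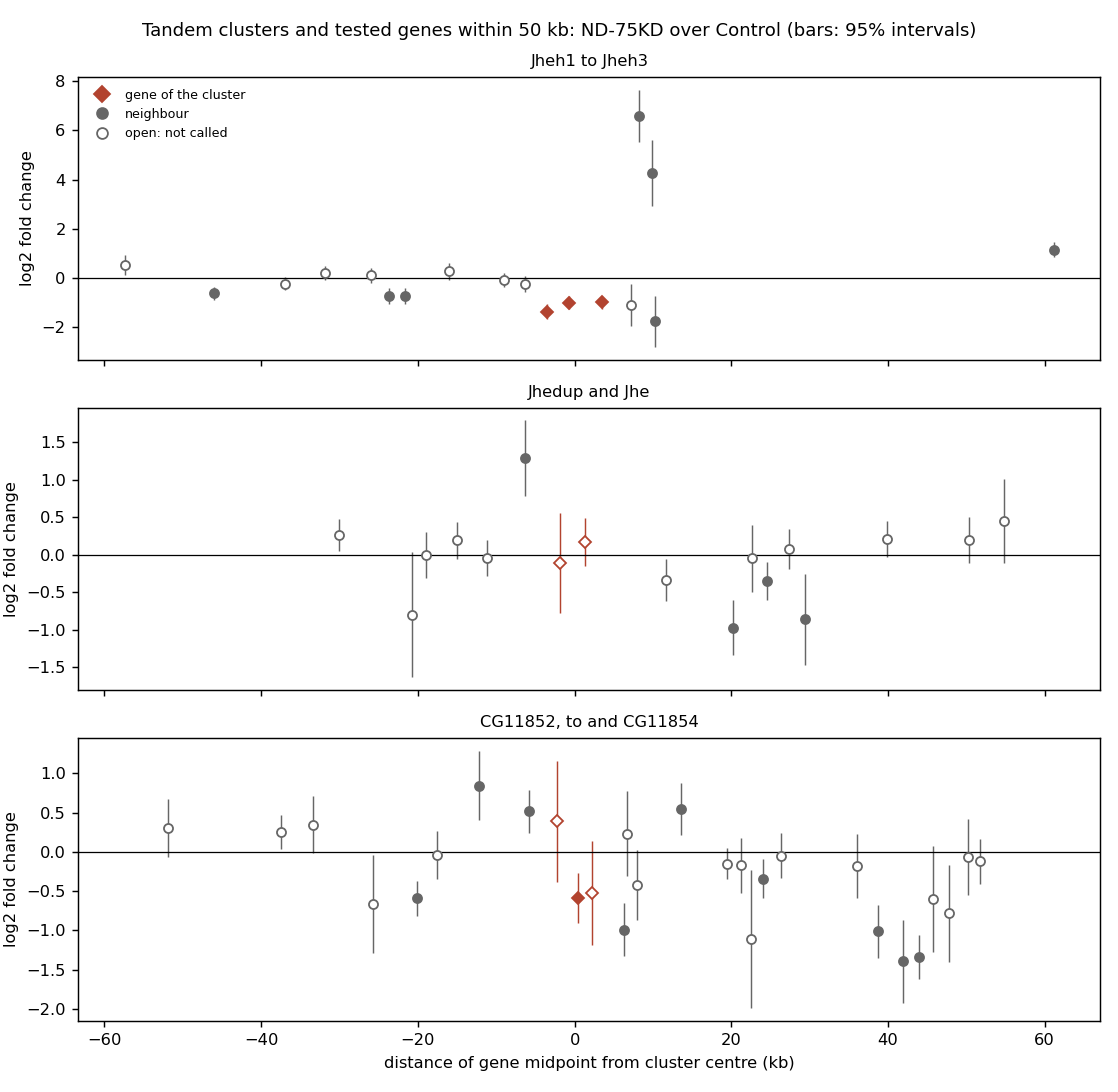
Log2 fold changes (ND-75KD over Control, vertical axis) of the genes of the Jheh, Jhe and takeout clusters (red diamonds) and of tested genes within 50 kb (grey circles), against the distance of the gene midpoint from the cluster centre in kb, with 95% intervals; open symbols did not pass the test. Jheh1, Jheh2 and Jheh3 lie below 0 beside DptA and DptB, at 6.58 and 4.26.

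Around Jhedup and Jhe, 1 of 15 tested neighbours rose and 3 fell, with a median of 0.00. Around takeout 3 of 25 rose and 6 fell, with a median of -0.17. Over all tested genes 14.3% were called higher and 18.9% lower.

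Markers of fat body, a tissue in which takeout is expressed, moved in the same direction. Of 6 fat body markers 5 fell, among them FASN1, a fatty acid synthase gene (log2 fold change -1.45), apolpp, the lipophorin precursor gene (-1.32), and Apoltp, a lipid transfer particle gene (-0.98). Over all tested genes 18.9% were called lower. The remaining marker, Lsp2, did not pass the test (-0.42, adjusted p = 0.136 by edgeR). The summed level of the 6 markers was 2088 to 3053 CPM in ND-75KD heads and 4892 to 7845 CPM in Control heads, with none at 0. Most of this sum came from apolpp and FASN1. The mean of apolpp was 1365 CPM in ND-75KD heads and 3405 CPM in Control heads, and that of FASN1 822 and 2241 CPM. The sum therefore mainly follows these genes.

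The yolk protein genes Yp1, Yp2 and Yp3, made in female fat body and classical targets of juvenile hormone and ecdysone, all 3 fell (log2 fold changes -2.27, -2.04 and -2.97). Over all tested genes 18.9% were called lower. The part of either hormone in the fall of the yolk protein genes was not tested. Their summed level was 3055 to 7882 CPM in ND-75KD heads and 22927 to 35254 CPM in Control heads. The male dosage compensation genes roX1 (-0.19), roX2 (-0.31) and msl-2 (-0.01) were not called, in pools that held the same number of each sex by design.

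Expressed as a percentage of the Control mean, ND-75KD libraries were at 29.4 to 45.5% for Jheh1, 42.1 to 57.0% for Jheh2, 42.6 to 57.8% for Jheh3 and 52.3 to 76.5% for takeout. The same libraries were at 33.8 to 49.4% for the summed fat body markers and 10.9 to 28.1% for the yolk protein genes. The ND-75KD ranges of the hydrolase genes and of the fat body markers overlapped. In Control 1 to 4 the summed fat body markers were at 127, 79.1, 92.1 and 102%. The same Control libraries were at 87.3, 108, 96.8 and 108% for Jheh1 and 86.0, 109, 101 and 104% for Jheh2. For Jheh3 they were at 91.5, 103, 98.0 and 107%. The part of the markers in the result was not tested. In bulk RNA of whole heads, fewer cells of a type and less RNA per cell cannot be told apart.

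**Figure D5:**
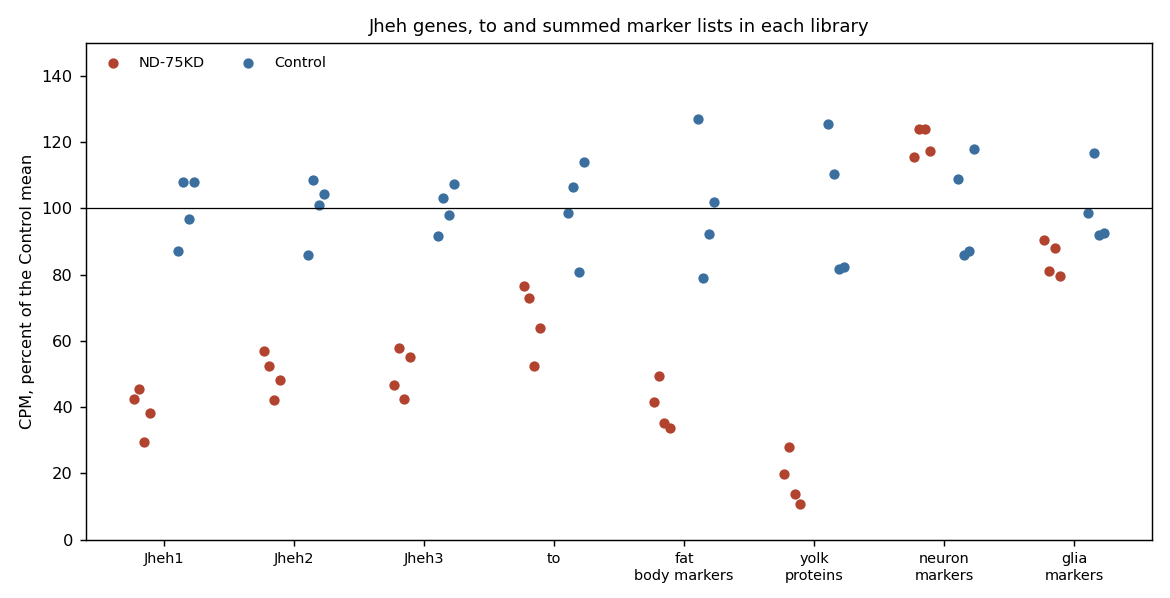
Level of Jheh1, Jheh2, Jheh3 and to and of 4 summed marker lists in each library, as a percentage of the Control mean (vertical axis), with ND-75KD (red) left of Control (blue) for each. ND-75KD libraries lie at 29.4 to 76.5% for the 4 hormone genes, at 33.8 to 49.4% for fat body markers and at 115 to 124% for neuron markers.

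Markers of other head tissues were examined in the same fit. Their counts stand beside 14.3% called higher and 18.9% called lower over all tested genes. Among 7 neuron markers 3 rose (elav, 0.75 on the log2 scale, Syx1A, 0.54, and para, 0.36) and 0 fell (edgeR, with all 7 fold changes above 0), with a median of 0.35. Their summed level was 115 to 124% of the Control mean in ND-75KD heads, against 86.1 to 118% in Control heads. These genes are 4072 (nSyb) to 16309 (para) bases long, and fold change rose with gene length over all tested genes. The part of length in the direction of this list was not tested. Among 7 glia markers 3 fell (alrm, -0.94, Eaat1, -0.46, and wrapper, -0.42), with a summed level of 79.5 to 90.5% in ND-75KD heads and 92.0 to 117% in Control heads. Of 5 photoreceptor markers 3 fell (ninaE, -0.79, trp, -0.54, and Arr2, -0.45), and of 5 muscle markers 4 were tested and 1 fell (Act88F, -1.2). Act88F averaged 4.94 CPM in ND-75KD heads and 11.4 CPM in Control heads. The far more abundant muscle markers Mhc (-0.07), Mlc2 (-0.06) and up (-0.19) were not called. Among the tissue marker calls, those of trp, Arr2, para, Eaat1 and wrapper were lost in 11, 10, 7, 4 and 3 of 17 alternative settings. In each case leaving out single libraries also ended the call, and para was at 0.08 with the length trend removed. Because takeout is under clock control, 8 clock genes were also examined, of which cyc (-0.72) and cry (-0.63) fell. The other 6, including per (-0.40) and tim (-0.25), were not called, and 6 of the 8 fold changes were below 0. The methods of the study do not give the time of day at which heads were frozen for RNA-seq. The part of the clock genes and of the tissue markers in the fall of takeout was not tested.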

How the data were processed

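Heads of ND-75KD and Control flies were compared by RNA-seq, with 4 libraries a group. The authors cleaned paired-end reads with fastp, aligned them with HISAT2 to the Ensembl fly genome release named in the study's methods and counted reads per gene with featureCounts. The tool versions and the strand setting are not given in the sources used here, nor is the treatment of reads that match several genes, so counts of paralogs (the Jheh genes, Jhe and Jhedup, Met and gce) and of genes whose exons overlap another gene (those named beside their values, and Yp1, elav, apolpp, Syx1A, JhI-21, cry, Cyp6g2, qm, CG3246 and Hsp83) are uncertain. The deposited counts are whole reads per gene, not normalised, and 8 columns of them were used together with the gene length in bases. The table also holds normalised counts, FPKM and the authors' fold changes and p-values between the genotypes, which were not used.

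Counts were tested with edgeR 4.0.16 in R 4.3.3 (quasi-likelihood test, TMM scaling, filterByExpr with a minimum count of 10 and a minimum total of 15, no covariate), with Benjamini-Hochberg adjustment over 9986 genes and calls at an adjusted p under 0.05. Ratios of paralogs were taken per kilobase after adding 0.5 read and compared by exact permutation tests. Alternatives were DESeq2 1.42.0, its size factors, upper quartile scaling, limma 3.58.1 voom with quality weights, 2 other filters, removal of the trend of fold change with gene length (loess, span 0.5), a replicate block, leaving out each library in turn and testing against a 1.2-fold change. The edgeR fits (plain, with the length trend removed and with the replicate block), DESeq2 and voom were tried on simulated counts. The paralog ratios, sums and overlaps were not. In the simulation, edgeR recovered 36% of 1.5-fold changes, 80% of 2-fold changes and 100% of 4-fold changes. Smaller differences in the genes not called could therefore have been missed. The genes and all lists (precursor synthesis, allatostatins, receptor partners and response, takeout family, yolk proteins, markers of fat body, neurons, glia, photoreceptors and muscle, clock genes, sex markers) were chosen with earlier results of these data known, and 1 gene first listed for precursor synthesis is not reported here. Every juvenile hormone gene is named, and from each other list up to 3 called genes with the smallest adjusted p, with other genes named for their place or role. Overlaps were taken from a later Ensembl annotation, in which 13869 of 13982 genes, all 10 juvenile hormone genes included, had the same coordinates.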

Additional observations from a re-analysis of the deposited data

Results flagged for a closer look

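In groups of 4 libraries, 5 of 78 sets of values held a library far from the other 3 by Dixon's test, and chance flags about 1 in 20 groups. Of the juvenile hormone genes, jhamt stood out in Control 3, at 1.87 CPM against 1.13 to 1.23 CPM in the other Control libraries, and Jhedup in ND-75KD 4, at 1.4 CPM against 1.04 to 1.10 CPM in the other ND-75KD libraries. Both are genes of low counts. Of the other genes, ND-75 was at 282 CPM in ND-75KD 3 against 312 to 316 CPM in the other ND-75KD libraries, alrm was at 86.0 CPM in ND-75KD 1 against 56.2 to 59.4 CPM, and the takeout family gene CG14661 was at 318 CPM in Control 1 against 255 to 261 CPM in the other Control libraries.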

How the results depend on the processing

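Under all 17 alternatives 4 of the 10 juvenile hormone genes were called lower and 0 higher, and Jheh1 (-1.45 to -1.20 on the log2 scale), Jheh2 (-1.07 to -0.92) and Jheh3 (-1.06 to -0.84) were among them each time. With the length trend removed the fourth gene was gce (-0.29) in place of takeout (-0.40). Fold change rose with gene length over all tested genes (Spearman's rho 0.35, across genes, which are not independent replicates). The log2 fold change of Jhedup, never called, ran from -0.29 to 0.13. The difference in the Jheh1 to Jheh2 ratio was -0.42 to -0.32 with each library left out (exact permutation p from 0.0286 to 0.0571, the higher value without Control 1, 2 or 4), and with signs flipped within same-numbered pairs as a replicate block it was -0.37 with an exact permutation p of 0.125, which is the smallest that 4 pairs allow. Same-numbered libraries did not deviate together (correlations of -0.11, -0.04, -0.01 and 0.03), so the numbers were not taken as pairs. With the replicate block edgeR called 2707 genes against 3314 without it, and of the named genes Cyp6g2, para, Arr2 and trp lost their call. Over all genes, the test against a fold of 1.2 called 696 higher and 1121 lower, and without ND-75KD 3 there were 931 higher calls, against 1429 and 1885 in the full fit. In the takeout family 1 to 6 genes rose and 4 to 6 fell over the alternatives, with 6 and 5 once the length trend was removed. Nup358 and Syx1A lost their call against a fold of 1.2 only, while single libraries left out were among the alternatives that ended the call of Cyp6g2 (9 of 17), wrapper (3), Eaat1 (4), para (7), Arr2 (10) and trp (11). Depth limits jhamt, Jhedup and Cyp6g2, whose intervals are the widest among the hormone genes and precursor genes.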
